A study of Mus musculus with 4 samples.

Results

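Glycolysis, the pathway that splits glucose into pyruvate and lactate, was followed through 10 genes in mouse hematopoietic stem and progenitor cells (HSPCs) with and without Chaf1b. The 10 genes are the glucose transporter gene Slc2a1, the hexokinase genes Hk1 and Hk2, the phosphofructokinase genes Pfkl and Pfkp, and Aldoa, Pgk1, Eno1, Pkm2 and Ldha, which encode later steps. They were chosen by name for their place in the pathway, with earlier results of these data known. All 10 were found among the 43629 gene identifiers of the count files, and all 10 passed the filter on low counts that left 16500 genes for testing. The study asked how CAF-1, a histone chaperone that loads H3-H4 onto newly copied DNA and of which Chaf1b is a subunit, sustains the identity of blood cells. Control HSPCs were CD117+ cells of C57Bl/6 mice with floxed Chaf1b alleles (Chaf1b fl/fl), spinfected with the empty retroviral vector MIGR1. Chaf1b-deleted HSPCs (Chaf1b -/-) were the same kind of cells spinfected with MIGR1-Cre for 48 h. Each group had 2 libraries of ribo-depleted, stranded total RNA.

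In both groups the cells were grown in StemSpan SFEMII with SCF at 50 ng/mL, IL-6 at 20 ng/mL by the labels and 10 ng/mL by the study's methods, IL-3 at 10 ng/mL and LDL at 1:200, and eGFP-positive cells were sorted 2 days after spinfection. By the study's methods, mice of both sexes were used at 8 to 12 weeks of age. Only the deleted group received Cre, so loss of Chaf1b and exposure to Cre cannot be told apart. Nothing in the labels says that the 2 libraries of a group came from separate animals, so the p-values measure only the spread between these libraries. The controls held 22736626 (replicate 1) and 25409926 (replicate 2) counts on genes, and the deleted libraries held 23539015 (replicate 1) and 18468637 (replicate 2). Levels are given as CPM, which scale the count of a gene to all counts that its library has on genes. In bulk RNA, fewer cells of a type that expresses a gene and less RNA of that gene per cell cannot be told apart.

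As background, glucose enters through facilitative transporters, is phosphorylated by hexokinase, committed to the pathway by phosphofructokinase, split by aldolase and oxidised and rearranged to pyruvate, which lactate dehydrogenase can reduce to lactate. Blood stem cells in the poorly oxygenated marrow, and the myeloid cells that descend from them, draw heavily on this pathway. Many of its genes respond to the transcription factors HIF-1 and Myc, and most steps are served by several isoenzymes encoded by separate genes.

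Chaf1b was low in both libraries labelled as deleted. Its level was 80.3 and 57.9 CPM in control replicates 1 and 2, and 16.1 and 17.9 CPM in deleted replicates 1 and 2. The deleted libraries were far below the controls, and the difference was called (log2 fold change -2.00 ± 0.25 SE, adjusted p = 0.033 by edgeR's quasi-likelihood method, Benjamini-Hochberg over all genes tested). The call was lost with at least 10 counts required in every library (adjusted p = 0.0651). A block for the replicate number also lost it (adjusted p = 0.059 in edgeR's test). Chaf1a, which encodes the large subunit of CAF-1, measured 120 and 84.9 CPM in the controls and 80.4 and 68.4 CPM in the deleted libraries. The deleted libraries again lay lower in CPM, but only by a margin within the spread of the controls. After TMM scaling the groups overlapped, and the difference did not pass edgeR's test (adjusted p = 0.569). Kit, which encodes the CD117 used for enrichment, was present at 109 and 124 CPM in the controls and 95.6 and 124 CPM in the deleted libraries. Kit RNA was thus found in every library, as the CD117+ label implies. Neutrophil genes were abundant beside it. The 11 listed neutrophil markers, led by S100a9, took 5.42% and 6.19% of the counts in the controls and 7.48% and 5.58% in the deleted libraries. Within this sum, Mmp9 and Ltf were higher and Elane lower in both deleted libraries (unadjusted p = 0.000777, 0.0396 and 0.0264, named after their values were seen), and none was called by edgeR's quasi-likelihood test.

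Deleted replicate 1 stood apart from the other 3 libraries. Xist was at 336 CPM there and between 1.14 and 1.30 CPM in the rest, and genes on Y summed to 0.127 CPM against 306 to 325 CPM elsewhere, the pattern of cells from a female, while the other 3 had that of cells from a male. The 2 deleted libraries thus did not come from the same animal. The median level of 20 interferon-stimulated genes was 103 CPM in it, against 9.65 and 10.1 CPM in the controls and 16.8 CPM in deleted replicate 2. Among the 10 glycolysis genes, Pgk1 is the member that lies on X. The part of sex and of the interferon response in the levels below was not tested.

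Reads that map to several places are left out of the counts, and several glycolysis genes have many processed copies in the genome. Reads with more than 1 alignment made up between 15.5% and 18.2% of all reads listed in the tables. Of the 31-mers (runs of 31 bases) in the annotated exons of NCBIM37, 72.7% were also found at other sites of the genome for Pgk1, 63.7% for Pkm2, 32.1% for Ldha, 25.8% for Eno1 and 22.4% for Aldoa. For the other 5 genes the share was 1.92% in Pfkl, 0.858% in Hk1, 0.615% in Hk2, 0.266% in Pfkp and 0 in Slc2a1. Ldha shared coding stretches with 14 annotated pseudogenes, Pkm2 with 6, Eno1 and Aldoa with 4 each and Pgk1 with 2. The coding stretch with the most copies in Pgk1, Ldha, Eno1 and Aldoa is printed below, from the gene's own strand, because a read made only of such bases could not be counted for the gene.
Pgk1, chrX:103397889-103397919, + strand, 5 copies elsewhere: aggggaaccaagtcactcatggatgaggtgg
Ldha, chr7:54102991-54103021, + strand, 11 copies elsewhere: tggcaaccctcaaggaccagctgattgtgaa
Eno1, chr4:149619246-149619276, + strand, 8 copies elsewhere: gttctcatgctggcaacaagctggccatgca
Aldoa, chr7:133939783-133939813, - strand, 5 copies elsewhere: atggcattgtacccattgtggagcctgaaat
How many reads each gene lost in each library was not measured. Levels of the 5 genes that share sequence with pseudogenes are understated and cannot be set beside those of other genes without this limit.

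**Figure D1:**
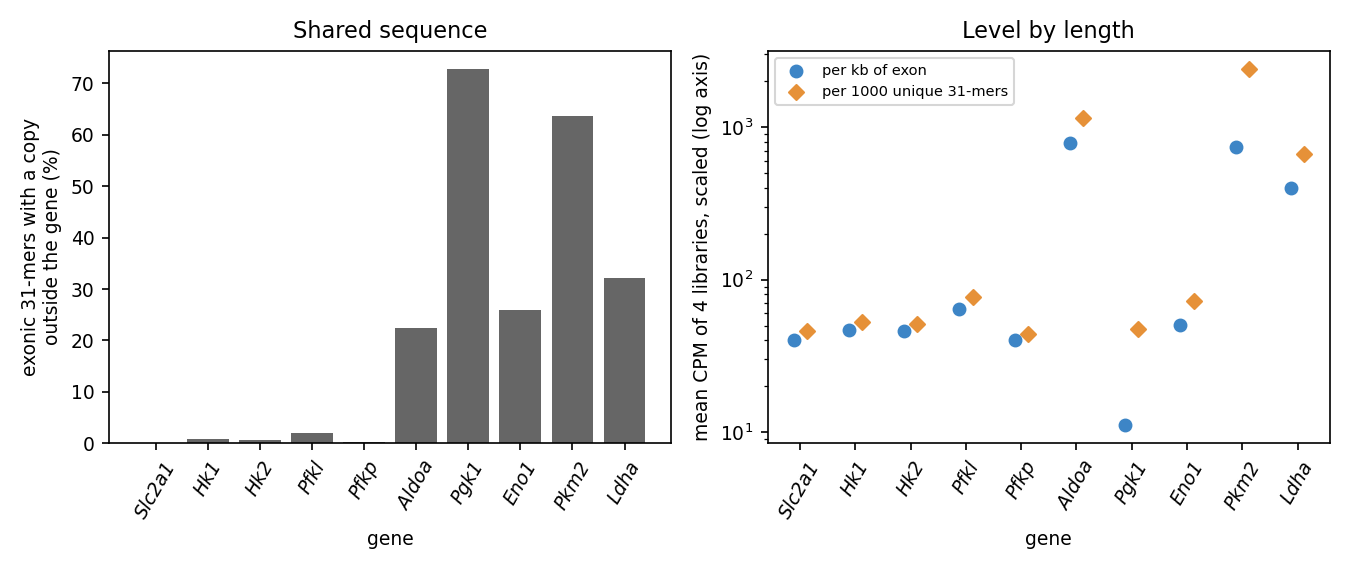
Left, bars from 0 give the percentage of exonic 31-mers with a copy outside the gene, for each glycolysis gene. Right, the mean CPM of the 4 libraries on a log axis, per kb of exon (blue circles) or per 1000 unique 31-mers (orange diamonds). Pgk1 moves from 11.1 on the first scale to 47.7 on the second, while Slc2a1 moves from 40.0 to 45.8.

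None of the 10 glycolysis genes was called between the groups. A gene was called when it differed by at least 1.5-fold with an adjusted p under 0.05 in edgeR's quasi-likelihood test, a rule that 62 of the 16500 genes tested met (0.376%), 61 of them higher and 1 lower after deletion. None of the 10 had an unadjusted p under 0.05 either. Over all genes tested, 3.1% were lower and 9.15% higher at that level. edgeR's exact test, its likelihood ratio test and DESeq2 also called 0 of the 10, and gave 0 of the 10 an unadjusted p under 0.05. The adjusted p-values of the 10 genes lay between 0.582 (Pfkl) and 0.9495 (Eno1).

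Most of the glycolysis genes nevertheless read lower after deletion. The log2 fold change was negative for 8 of the 10 and for 52.5% of all genes tested, and positive for Slc2a1 and Eno1, with a median of -0.23 against -0.03 over all genes tested. In 6 of the 10 (Hk1, Hk2, Pfkl, Aldoa, Pkm2 and Ldha) both deleted libraries lay below both controls in CPM, and in none did both lie above. Over all genes tested, 22.9% had both deleted libraries below both controls and 21.4% had both above. With the TMM scaling used in the test the count was 5 of 10, since Pkm2 then overlapped, against 21.4% of all genes tested in that direction. The 95% intervals reached down to a log2 fold change of -1.16 (Aldoa) and up to 0.62 (Slc2a1). A fall of 1.5-fold lay inside the interval of 8 of the 10 genes and a fall of 2-fold inside that of Aldoa and Pkm2. The median moved to -0.34 without control replicate 1 and to -0.10 without control replicate 2.

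**Figure D2:**
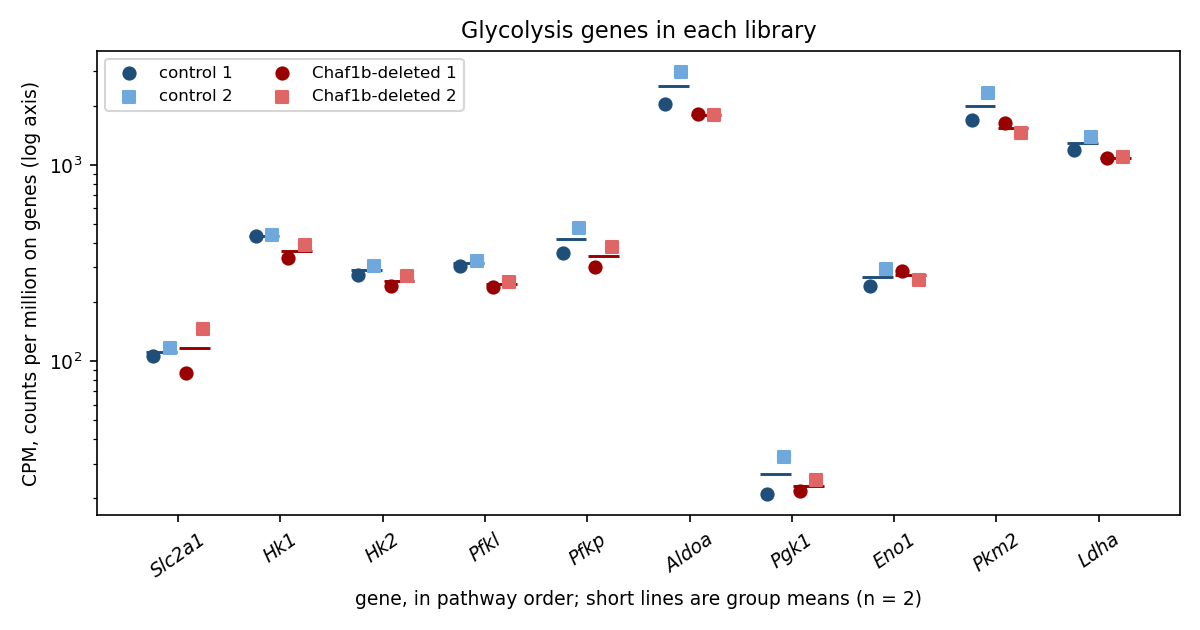
CPM of the 10 glycolysis genes in pathway order, on a log axis, with a point for each library (blue, controls; red, Chaf1b-deleted; circle, replicate 1; square, replicate 2) and a short line at each group mean (n = 2). The points of control replicate 2 are the highest or near the highest for most genes, as for Aldoa at 2983 CPM.

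Glucose entry was not called at either transporter gene. Slc2a1 (ENSMUSG00000028645; chr4:118781316-118809935, + strand), which encodes the transporter GLUT1, measured 106 and 117 CPM in control replicates 1 and 2 and 87.3 and 146 CPM in deleted replicates 1 and 2. The deleted libraries held both the lowest and the highest value, so the groups overlapped. The log2 fold change was 0.07 ± 0.24 SE, and it was 0.31 without deleted replicate 1 and -0.21 without deleted replicate 2. Slc2a3, which encodes the high-affinity transporter GLUT3, measured 328 and 533 CPM in the controls and 517 and 648 CPM in the deleted libraries. Control replicate 2 lay between the deleted libraries in CPM and below both after TMM scaling, and the gene did not pass the test (log2 fold change 0.46, adjusted p = 0.574 in edgeR's test). Per kb of exon, Slc2a1 made up 45.1% and 35.8% of the pair in the controls and 30.0% and 36.4% in the deleted libraries. These shares overlapped (exact permutation test, two-sided, p = 0.667).

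The 2 hexokinase genes among the 10 lay slightly lower after deletion. Hk1 (ENSMUSG00000037012; chr10:61731603-61842656, - strand) encodes the widely expressed hexokinase I and measured 433 and 438 CPM in the controls and 334 and 393 CPM in the deleted libraries. The groups did not overlap, with deleted replicate 1 lowest (log2 fold change -0.24 ± 0.21 SE). Hk2 (ENSMUSG00000000628; chr6:82675019-82724448, - strand) encodes the inducible, mitochondria-bound hexokinase II and measured 276 and 304 CPM in the controls and 241 and 272 CPM in the deleted libraries. The groups did not overlap, but deleted replicate 2 came within a few CPM of control replicate 1 (log2 fold change -0.15 ± 0.20 SE, and -0.10 without control replicate 2). Neither passed edgeR's test (adjusted p = 0.717 and 0.821). Hk3, the hexokinase gene of myeloid cells, overlapped between the groups (log2 fold change -0.008). It measured 529 and 566 CPM in the controls and 599 and 459 CPM in the deleted libraries, with the controls between the deleted libraries.

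Per kb of exon, Hk3 was the most abundant of the 3 hexokinase genes in every library. Its share of the 3 was 59.7% and 60.1% in the controls and 67.2% and 57.6% in the deleted libraries. Hk1 took 21.1% and 20.0% in the controls against 16.2% and 21.3%, and Hk2 took 19.2% and 19.9% against 16.7% and 21.1%. All 3 shares overlapped between the groups, with deleted replicate 1 at an end of each. Hkdc1, which encodes a further hexokinase domain protein, was barely expressed, at 0.748 and 0.197 CPM in the controls and 2.51 and 3.30 CPM in the deleted libraries. The deleted libraries were the higher ones without overlap, and the gene had the largest log2 fold change of the other glycolysis enzymes with separated groups (2.63 ± 0.67 SE). It was not called by the quasi-likelihood test (adjusted p = 0.172), but it was called by edgeR's exact test (adjusted p = 0.0135) and by DESeq2 (adjusted p = 0.0244). Adpgk, which encodes an ADP-dependent glucokinase, measured 446 and 445 CPM in the controls and 627 and 541 CPM in the deleted libraries. It lay higher after deletion without overlap and did not pass edgeR's test (adjusted p = 0.545).

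Glucose phosphate isomerase, which passes the product of hexokinase on as fructose 6-phosphate, is encoded by Gpi1. Its level was 965 and 1336 CPM in the controls and 770 and 811 CPM in the deleted libraries. The deleted libraries lay lower without overlap (log2 fold change -0.52 ± 0.27 SE, adjusted p = 0.501 in edgeR's test), and 18.4% of the exonic 31-mers of Gpi1 have copies elsewhere.

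Phosphofructokinase, the committed step, gave the lowest p among the 10 genes. Pfkl (ENSMUSG00000020277; chr10:77449692-77472828, - strand), the gene of the liver-type subunit, measured 306 and 324 CPM in control replicates 1 and 2 and 239 and 254 CPM in deleted replicates 1 and 2. The replicates of each group lay close together (315 ± 12.7 against 246 ± 11.1 CPM, mean ± SD, n = 2), and the groups were separated by more than either spread. The log2 fold change was -0.33 ± 0.21 SE with a 95% interval from -0.81 to 0.15, and the gene did not pass the test (unadjusted p = 0.151, adjusted p = 0.582 in edgeR's quasi-likelihood test). Pfkp (ENSMUSG00000021196; chr13:6579014-6648023, - strand), the gene of the platelet-type subunit, measured 355 and 480 CPM in the controls and 302 and 382 CPM in the deleted libraries. Here control replicate 1 fell between the deleted libraries, and the log2 fold change of -0.27 became -0.47 without control replicate 1 and -0.05 without control replicate 2. Pfkm, the gene of the muscle-type subunit, measured 42.4 and 33.8 CPM in the controls and 18.1 and 27.6 CPM in the deleted libraries. It had the largest negative log2 fold change of the other glycolysis enzymes with separated groups (-0.73 ± 0.25 SE, unadjusted p = 0.0203, adjusted p = 0.292 in edgeR's test).

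Per kb of exon, Pfkl led its family with 57.4% and 54.3% in the controls and 58.8% and 53.8% in the deleted libraries. Pfkp followed with 31.2% and 37.6% against 34.8% and 37.8%. Pfkm took 11.5% and 8.15% in the controls and 6.41% and 8.42% in the deleted libraries. Each of these shares overlapped between the groups, so the mix of subunits did not differ beyond the spread of the libraries. Without length scaling they overlapped too, but Pfkp led in every library (50.5% and 57.3% in the controls, 54.1% and 57.5% in the deleted libraries), and the difference of Pfkl between the group means turned from 0.47 to -0.58 percentage points.

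The enzymes that oppose phosphofructokinase gave the only calls of edgeR's quasi-likelihood test in the pathway lists around glycolysis. Fbp1 and Fbp2 encode fructose-1,6-bisphosphatases, which return fructose 1,6-bisphosphate to fructose 6-phosphate in gluconeogenesis, and they are neighbours on chr13, 6.4 kb apart. Fbp1 measured 2.95 and 4.92 CPM in the controls and 33.3 and 26.5 CPM in the deleted libraries. The deleted libraries were several-fold higher without overlap (log2 fold change 2.96 ± 0.35 SE, adjusted p = 0.033 in edgeR's test). Fbp2 measured 0.132 and 0.157 CPM in the controls, which is 3 and 4 counts, and 3.27 and 5.20 CPM in the deleted libraries, which is 77 and 96 counts. Pooled over the libraries of each group, its level was 28.3 times higher after deletion, with an exact 95% interval from 13.5 to 71.5 that covers counting error only (adjusted p = 0.033 in edgeR's test). The calls of Fbp1 and Fbp2 held with each library left out in turn. That of Fbp1 was lost with at least 10 counts required in every library (adjusted p = 0.0651), a filter that removed Fbp2, and that of Fbp2 with library size as the only scaling (adjusted p = 0.0579). With a block for the replicate number, neither gene was called (adjusted p = 0.0903 for Fbp1 and 0.0797 for Fbp2 in edgeR's test). Per kb of exon, Fbp1 and Fbp2 stayed below Pfkl in every library.

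**Figure D3:**
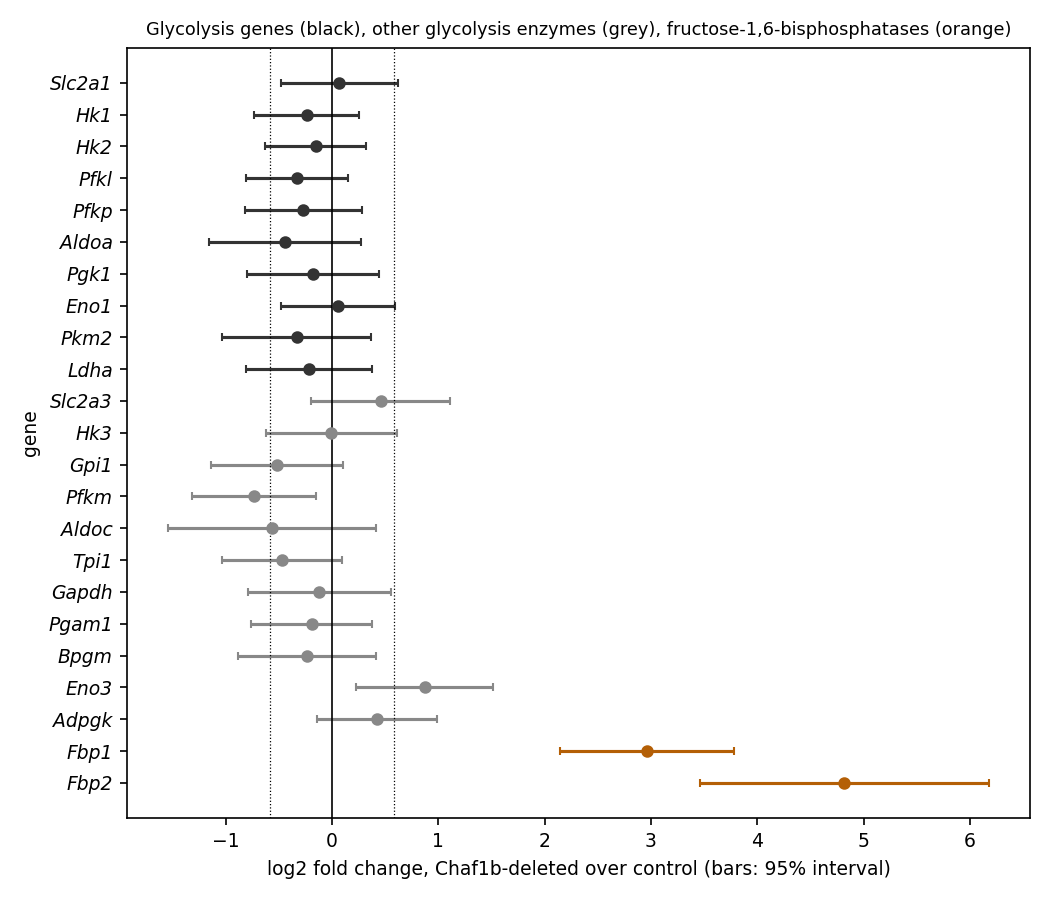
Log2 fold change of Chaf1b-deleted over control HSPCs with its 95% interval for the 10 glycolysis genes (black), the other glycolysis enzymes with a mean over 10 CPM (grey) and Fbp1 and Fbp2 (orange). The dotted lines mark 1.5-fold. The interval of every glycolysis gene in black spans 0, while those of Fbp1 and Fbp2, at 2.96 and 4.82, lie to the right of the dotted line.

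Aldolase, which splits the 6-carbon sugar into a pair of triose phosphates, showed a wide gap between the control libraries. Aldoa (ENSMUSG00000030695; chr7:133938748-133944265, - strand) measured 2044 and 2983 CPM in control replicates 1 and 2 and 1822 and 1792 CPM in deleted replicates 1 and 2. Both deleted libraries lay just below control replicate 1 and far below control replicate 2. The means were 2513 ± 664 CPM in the controls and 1807 ± 21.6 CPM after deletion (SD, n = 2). The log2 fold change was -0.45 ± 0.31 SE (adjusted p = 0.625 in edgeR's test), the most negative of the 10 genes, and it moved to -0.69 without control replicate 1 and to -0.16 without control replicate 2. Aldoc, the gene of the brain-type enzyme, measured 38.3 and 108 CPM in the controls and 41.8 and 56.0 CPM in the deleted libraries. Control replicate 2 was again the highest and the groups overlapped. Per kb, Aldoa made up between 97.03% and 98.44% of the pair in every library.

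The middle of the pathway includes genes with uncertain counts. Tpi1, the gene of triosephosphate isomerase, measured 818 and 986 CPM in the controls and 629 and 651 CPM in the deleted libraries. The deleted libraries lay lower without overlap and the gene did not pass edgeR's test (log2 fold change -0.47 ± 0.24 SE, adjusted p = 0.501). Gapdh, the gene of the dehydrogenase that follows, was counted at only 84.3 and 52.2 CPM in the controls and 49.3 and 76.1 CPM in the deleted libraries. Its values overlapped, and 53.5% of its exonic 31-mers have copies elsewhere, with 85 annotated pseudogenes sharing its coding stretches. Pgk1 (ENSMUSG00000062070; chrX:103382439-103399038, + strand), which encodes the phosphoglycerate kinase that makes the first ATP of the pathway, measured 20.9 and 32.4 CPM in the controls and 21.7 and 24.6 CPM in the deleted libraries. Both deleted libraries lay between the controls. With a log2 fold change of -0.18 ± 0.27 SE, Pgk1 did not pass the test, and the value moved to -0.46 without control replicate 1 and turned to 0.15 without control replicate 2. Pgk1 had between 455 and 823 counts, so the 95% Wilson interval of its level reached up to 9.20% to either side, the widest of the 10 genes, and such intervals cover counting error only. Pgam1, the gene of phosphoglycerate mutase, has copies of 93.8% of its 31-mers elsewhere. It measured 23.9 and 23.3 CPM in the controls and 21.4 and 18.9 CPM in the deleted libraries, slightly lower without overlap in CPM but not after TMM scaling. Bpgm, the gene of bisphosphoglycerate mutase, measured 19.1 and 14.1 CPM in the controls and 12.4 and 15.4 CPM in the deleted libraries, with overlap.

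Enolase was a step at which the leading gene did not read lower. Eno1 (ENSMUSG00000063524; chr4:149610830-149622988, + strand), the gene of the ubiquitous alpha enolase, measured 242 and 296 CPM in the controls and 289 and 258 CPM in the deleted libraries. In CPM both deleted libraries lay between the controls, while after TMM scaling deleted replicate 1 was the highest library. The log2 fold change was 0.06 ± 0.23 SE. Its sign turned, to -0.08 without control replicate 1 and to -0.14 without deleted replicate 1. It was 0.19 without control replicate 2 and 0.24 without deleted replicate 2. Eno3, the gene of the muscle enolase, measured 8.36 and 8.30 CPM in the controls and 13.8 and 16.2 CPM in the deleted libraries. The groups did not overlap, yet the gene was not called (log2 fold change 0.87 ± 0.28 SE, unadjusted p = 0.0148, adjusted p = 0.259 in edgeR's test). Per kb, the share of Eno1 in the enolases was 89.5% and 91.5% in the controls and 86.3% and 81.9% in the deleted libraries, and that of Eno3 was 9.83% and 8.18% against 13.2% and 16.4%. Neither share overlapped between the groups. Without length scaling they did not overlap either, but the difference between the group means (deleted minus control) went from -6.4 to -2.8 percentage points for Eno1 and from 5.8 to 2.2 for Eno3. With 2 libraries against 2, the exact permutation test (two-sided) cannot give a p below 0.333, the value both shares had.

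Pyruvate kinase and lactate dehydrogenase close the pathway, and both lay lower in the deleted libraries. Pkm2 (ENSMUSG00000032294; chr9:59504383-59527182, + strand), as the annotation names the gene of the muscle-type pyruvate kinases, measured 1687 and 2323 CPM in the controls and 1642 and 1461 CPM in the deleted libraries. Deleted replicate 1 lay only slightly below control replicate 1, and after TMM scaling the pair changed places. The log2 fold change was -0.33 ± 0.30 SE (adjusted p = 0.724 in edgeR's test). It was -0.54 without control replicate 1, -0.10 without control replicate 2, -0.54 without deleted replicate 1 and -0.15 without deleted replicate 2. The counts are of the whole gene, so they do not tell its splice forms M1 and M2 apart. Ldha (ENSMUSG00000063229; chr7:54096845-54110997, + strand), the gene of the A subunit, which favours lactate, measured 1192 and 1389 CPM in the controls and 1079 and 1102 CPM in the deleted libraries. The deleted libraries were close to each other (1090 ± 16.4 CPM, mean ± SD, n = 2) and below both controls (1290 ± 139 CPM). Its log2 fold change was -0.22 ± 0.26 SE (adjusted p = 0.798 in edgeR's test), and -0.12 without control replicate 2 or without deleted replicate 2.

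Ldhb, the gene of the B subunit, was a trace beside Ldha. It measured 4.40 and 5.27 CPM in the controls and 9.69 and 8.18 CPM in the deleted libraries. Again the deleted libraries were the higher ones (log2 fold change 0.92 ± 0.35 SE, unadjusted p = 0.0316, adjusted p = 0.339 in edgeR's test), and 40.5% of its 31-mers have copies elsewhere. Per kb, Ldhb made up 0.696% and 0.716% of the pair in the controls and 1.68% and 1.39% in the deleted libraries, without overlap (exact permutation test, two-sided, p = 0.333, the smallest it can give). Without length scaling the groups did not overlap either, and the difference went from 0.83 to 0.44 percentage points. Ldha thus remained above 98% of the pair in every library, at 98.3% or more.

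**Figure D4:**
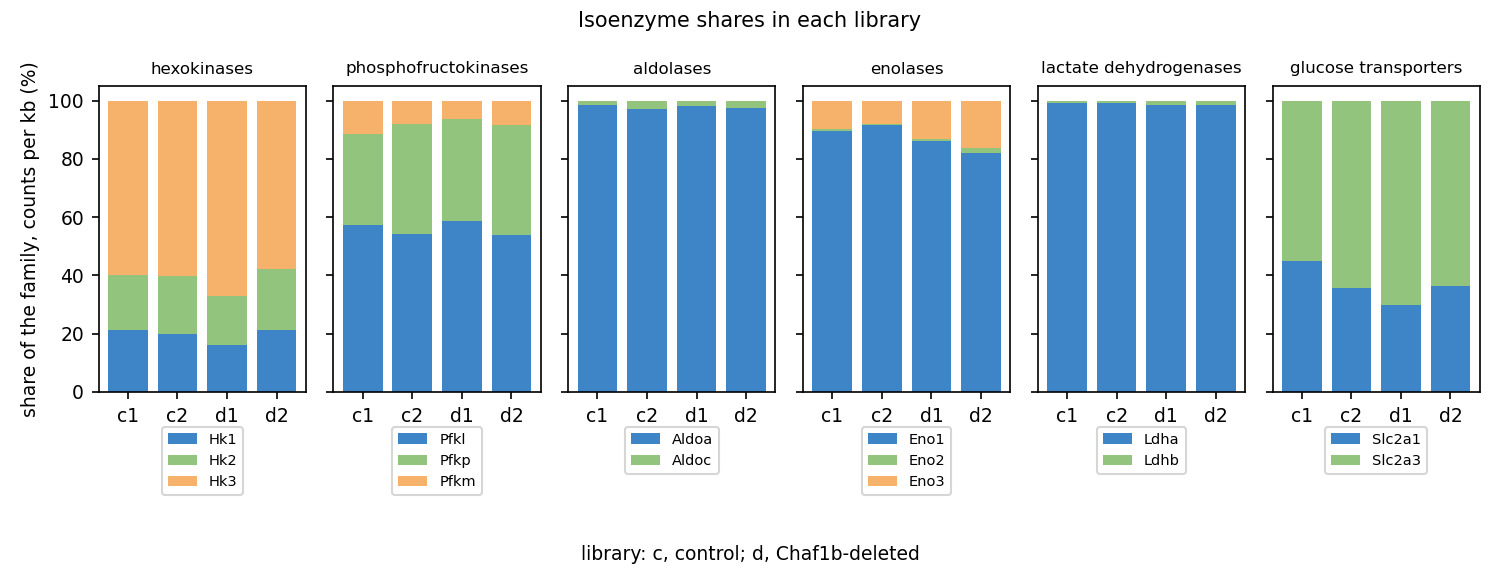
Share of each isoenzyme gene in its family, from counts per kb of exon, as stacked bars from 0 to the whole for control replicates (c1, c2) and deleted replicates (d1, d2). Aldoa and Ldha fill nearly the whole bar of their families, Hk3 holds the largest part of the hexokinases, and the part of Eno3 is larger in both deleted libraries (13.2% and 16.4%) than in the controls (9.83% and 8.18%).

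Among themselves, the 10 genes differed widely in level per kb of exon. Aldoa led with a mean of 784 CPM per kb and Pkm2 followed with 744, and their ranges over the 4 libraries overlapped. Ldha came next at 399, apart from both neighbours in the order. Pfkl (63.9), Eno1 (50.4), Hk1 (46.8), Hk2 (45.8), Pfkp (40.4) and Slc2a1 (40.0) followed, each overlapping the next. Pgk1 was last at 11.1, below the range of Slc2a1. Scaled to the number of unique 31-mers instead of exon length, Pkm2 led at 2413 CPM per 1000 of them before Aldoa at 1148, and Pgk1 reached 47.7, in the range of Slc2a1 (45.8) and Hk2 (51.2). The last place of Pgk1 per kb therefore rested on the length used, while its rank stayed low (8 of 10).

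The control libraries differed from each other in the 10 genes. All 10 were higher in control replicate 2 than in control replicate 1 in CPM, and 9 of 10 after TMM scaling, where the same held for 47.95% and 45.05% of all genes tested. The ratio of replicate 2 to replicate 1 was largest for Pgk1 (1.55), Aldoa (1.46), Pkm2 (1.38) and Pfkp (1.35) and smallest for Hk1 (1.01). Summed, the 10 genes took 0.666% and 0.868% of the counts in the controls and 0.606% and 0.608% in the deleted libraries. In this sum control replicate 2 stood out, while control replicate 1 lay close to the deleted libraries. Without Aldoa the sums were 4618 and 5701 CPM in the controls and 4235 and 4293 CPM in the deleted libraries. For Hk1 and Pfkl, however, control replicate 1 lay nearer to control replicate 2 than to the deleted libraries. Between the deleted libraries, 7 of the 10 were higher in replicate 2 in CPM, as were 65.0% of all genes tested. After TMM scaling this turned, with 3 of the 10 higher in replicate 2 against 50.7% of all genes tested. The widest gap in CPM there was that of Slc2a1, 1.67 times higher in deleted replicate 2.

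Most markers of macrophages and antigen-presenting cells were also higher in control replicate 2 than in control replicate 1. The 8 listed monocyte and macrophage genes, led by Ly6c2, summed to 814 and 1279 CPM in the controls and 1939 and 967 CPM in the deleted libraries, and all 8 were higher in control replicate 2 than in control replicate 1. C1qa, a complement gene of macrophages, was at 0.660 and 23.2 CPM in the controls and 10.6 and 0.433 CPM in the deleted libraries. The 8 dendritic cell and MHC class II genes, led by Cd74, summed to 166 and 827 CPM in the controls and 1076 and 442 CPM in the deleted libraries. Of these 8, 6 were higher in control replicate 2 than in control replicate 1. Deleted replicate 1 had the highest sum of both sets, but without Ly6c2 the monocyte and macrophage genes summed to 180 and 502 CPM in the controls and 443 and 348 CPM in the deleted libraries, highest in control replicate 2. Without Cd74 the other set summed to 80.05 and 340.1 CPM against 509.5 and 225.5 CPM, still highest in deleted replicate 1. The glycolysis genes summed to 6057 CPM in that library and to 6084 CPM in deleted replicate 2. After TMM scaling their mean log2 level was lower in deleted replicate 2. Between the groups, Cd14 and Emr1 of the first set and Ccr7, Itgax and Siglech of the second were higher in both deleted libraries with an unadjusted p under 0.05 (named after their values were seen), and none was called by edgeR's quasi-likelihood test. Over all genes tested, 9.15% were higher at that level. The log2 fold change was negative for 3 of 8 genes of the first set (Csf1r, C1qa and C1qb) and 0 of 8 of the second. No gene of either list was at 0 in all 4 libraries. Most erythroid genes went the other way, with 2 of 9 higher in control replicate 2. Led by Car2, they summed to 323 and 150 CPM in the controls and 160 and 285 CPM in the deleted libraries, of which Car2 made up 203 and 70.0 CPM in the controls and 102 and 201 CPM in the deleted libraries. The part of these cell types in the levels of the glycolysis genes was not tested.

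The other marker lists were read alike. The 10 stem and progenitor genes, led by Ptprc, summed to 2051 and 2257 CPM in the controls and 2019 and 2304 CPM in the deleted libraries. The sums hide differences in single genes, named after their values were seen. Flt3, which encodes a cytokine receptor of progenitors, measured 4.66 and 5.31 CPM in the controls and 19.3 and 22.7 CPM in the deleted libraries and was called (log2 fold change 2.09, adjusted p = 0.0383 in edgeR's test). The call of Flt3 was lost with DESeq2's size factors (adjusted p = 0.0503), with library size as the only scaling (0.0581) and with at least 10 counts in every library (0.0651). A block for the replicate number lost the call of Flt3 too (adjusted p = 0.0958 in edgeR's test). Cd34 was higher and Myb lower without being called (unadjusted p = 0.0275 and 0.0249). The 7 mast cell and basophil genes, led by Cpa3, summed to 766 and 468 CPM against 639 and 679 CPM, and 0 of the 7 were higher in control replicate 2 than in control replicate 1. The 7 megakaryocyte and platelet genes, led by Itga2b, summed to 109 and 107 CPM against 157 and 279 CPM, and in 6 of the 7 both deleted libraries lay above both controls, against 21.4% of all genes tested. The 10 lymphoid genes, led by Cd79b, summed to 19.0 and 23.1 CPM against 34.1 and 28.2 CPM. The 7 genes of stroma and endothelium, led by Pecam1, summed to 242 and 245 CPM against 290 and 293 CPM, of which all but 25.6 and 11.8 CPM in the controls and 23.2 and 44.6 CPM in the deleted libraries came from Pecam1, which blood cells also express.

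**Figure D5:**
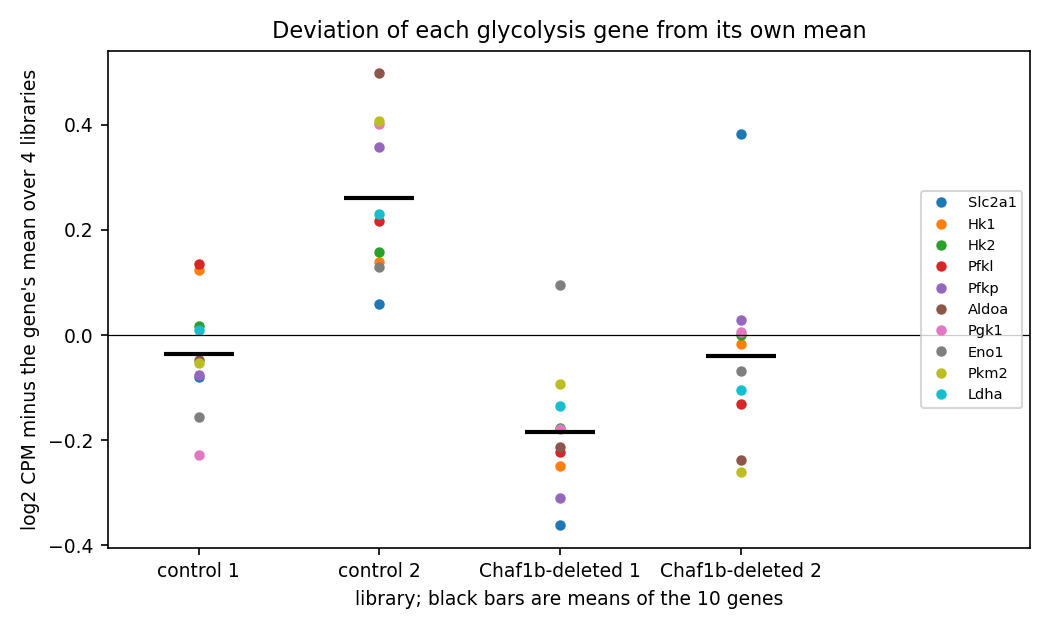
Log2 CPM of each of the 10 glycolysis genes minus its own mean over the 4 libraries, as a coloured point per gene and library, with a black line at the mean of the 10. The mean is 0.26 in control replicate 2, against -0.04 in control replicate 1, -0.18 in deleted replicate 1 and -0.04 in deleted replicate 2. The order of the deleted libraries depends on the scaling, since after TMM scaling their means are -0.07 and -0.13.

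Genes outside glycolysis with the most similar course were sought among 6068 genes with a mean log2 CPM of at least 5. The measure was the Euclidean distance over the 4 libraries between log2 TMM CPM values centred on each gene and the mean of the 10. The nearest were Hps3 (distance 0.0336), Ikbke (0.0368), Ube2w (0.0451), Tmx4 (0.052) and Crbn (0.0573). Hps3, for example, measured 56.5 and 69.3 CPM in the controls and 51.8 and 57.8 CPM in the deleted libraries. With 4 libraries, a small distance says only that the levels ran in parallel here.

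The promoters of the 10 genes were read for the core of the HIF-responsive element and for the E-box bound by Myc and related factors. All 10 genes matched RefSeq's table of starts (GRCm38.p6), with 17 start sites among them, and the 250 bases before each were searched on both strands for ACGTG and GCGTG and for CACGTG, which contains ACGTG on each strand. At least 1 window of all 10 genes held ACGTG or GCGTG, and 14 of the 17 windows did. Of the 32851 windows of all genes, 38.6% did, and CACGTG was in 6.02% of them. Counting only the outermost start of each gene, 7 of the 10 held a core, against 38.6% of 27025 such windows over all genes. Hk1, Aldoa and Pkm2 held none there, and only Ldha held CACGTG. The outermost windows of the 10 genes were between 49.6% and 69.6% G and C, against a median of 52% over all genes. Windows of Slc2a1, Pgk1 and Ldha, the entry, the middle and the end of the pathway, are shown with every match in capitals.
Slc2a1, chr4:119108495-119108744, + strand: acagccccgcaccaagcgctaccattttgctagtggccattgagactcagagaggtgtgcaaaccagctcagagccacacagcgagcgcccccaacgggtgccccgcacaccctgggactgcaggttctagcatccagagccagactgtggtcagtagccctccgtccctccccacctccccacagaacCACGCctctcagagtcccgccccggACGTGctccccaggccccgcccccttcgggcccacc
Pgk1, chrX:106186850-106187099, + strand: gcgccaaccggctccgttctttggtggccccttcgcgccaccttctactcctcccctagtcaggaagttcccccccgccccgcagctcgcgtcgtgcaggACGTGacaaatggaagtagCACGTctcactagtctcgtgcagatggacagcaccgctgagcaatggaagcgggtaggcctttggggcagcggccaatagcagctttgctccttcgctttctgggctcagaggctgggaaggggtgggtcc
Ldha, chr7:46845554-46845803, + strand: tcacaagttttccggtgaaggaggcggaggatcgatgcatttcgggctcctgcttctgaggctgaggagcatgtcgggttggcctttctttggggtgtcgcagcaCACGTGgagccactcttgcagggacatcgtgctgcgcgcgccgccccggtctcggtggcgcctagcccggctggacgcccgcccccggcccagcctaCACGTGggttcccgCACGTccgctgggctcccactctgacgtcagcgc
Slc2a1 held 1 match of ACGTG and 1 of GCGTG, Pgk1 held 2 of ACGTG, and Ldha held 5 of ACGTG, of which its 2 CACGTG account for 4. A match describes these letters and is not a measured binding site.

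The neighbouring pathways were read from lists chosen by name with earlier results of these data known, and few of their genes were called. Over all genes tested, 0.376% were called, and 9.15% were higher and 3.1% lower with an unadjusted p under 0.05. Of 18 tested genes among the 21 other glycolysis enzymes and isoenzymes, none was called, 3 were higher (Hkdc1, Eno3 and Ldhb) and 1 lower (Pfkm) with an unadjusted p under 0.05, and the median log2 fold change was -0.09. edgeR's exact test and DESeq2 each called 1 of them, Hkdc1. Of 17 tested genes among 18 regulators of glycolysis and lactate exporters, none was called and 1 was higher at the unadjusted level (Mycn, named after its value was seen), with a median of -0.04. Pfkfb1, the gene of a bifunctional enzyme that sets fructose 2,6-bisphosphate, measured 6.29 and 7.04 CPM in the controls and 3.40 and 5.68 CPM in the deleted libraries, and Mlxipl, the gene of the glucose-sensing factor ChREBP, measured 0.792 and 0.748 CPM against 1.44 and 1.62 CPM. These were the lowest and the highest fold changes of that list among genes with separated groups, and neither passed edgeR's test (adjusted p = 0.617 and 0.494).

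Of 5 tested genes among the 7 of gluconeogenesis, 2 were called, Fbp1 and Fbp2, both higher, against 0.376% of all genes tested. The list was chosen with earlier results of these data known and the called genes are neighbours, so this count is a description only. Pck2, the gene of the mitochondrial phosphoenolpyruvate carboxykinase, measured 56.0 and 62.6 CPM in the controls and 43.5 and 43.0 CPM in the deleted libraries, lower without overlap and not called (adjusted p = 0.475 in edgeR's test). Of 9 tested genes among the 10 of the pentose phosphate pathway, which branches off after hexokinase, none was called or had an unadjusted p under 0.05, and the median was -0.14. H6pd measured 126 and 121 CPM in the controls and 160 and 142 CPM in the deleted libraries, and Rpia measured 164 and 121 CPM against 113 and 98.1 CPM. Both separated the groups in CPM, Rpia no longer after TMM scaling, and neither passed the test.

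All 23 genes of pyruvate entry and the citrate cycle were tested, none was called, and the median log2 fold change was -0.19, close to that of the 10 glycolysis genes. In 18 of the 23 the log2 fold change was negative, against 52.5% of all genes tested. Both deleted libraries lay below both controls in CPM for 10 of the 23, against 22.9% of all genes tested. They lay above both controls for 2 of the 23, against 21.4%. In this list, however, control replicate 1 was the high library, since only 1 of the 23 was higher in control replicate 2. Sdha, the gene of the flavoprotein of succinate dehydrogenase, measured 276 and 224 CPM in the controls and 180 and 187 CPM in the deleted libraries. Mpc2, the gene of a subunit of the mitochondrial pyruvate carrier, lay higher after deletion, at 39.4 and 33.5 CPM in the controls and 60.5 and 57.8 CPM in the deleted libraries (unadjusted p = 0.0111, adjusted p = 0.229 in edgeR's test). Of the 14 HIF-responsive genes outside glycolysis, all tested, none was called, 1 was higher and 1 lower at the unadjusted level, and the median was -0.09. The higher gene was Ddit4, at 33.6 and 21.2 CPM in the controls and 37.7 and 46.2 CPM in the deleted libraries. The lower was Car9, the gene of a carbonic anhydrase induced in hypoxia, at 7.57 and 12.1 CPM in the controls and 4.42 and 6.12 CPM in the deleted libraries. Neither was called (adjusted p = 0.408 and 0.384 in edgeR's test), and 12 of the 14 were higher in control replicate 2 than in control replicate 1.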

How the data were processed

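RNA was measured in 2 control and 2 Chaf1b-deleted HSPC libraries. The authors aligned the reads and counted them per gene, and the deposited values are raw counts, 1 table per library. The submitters' processing notes name STAR, HTSeq and mm9. The annotation release and strand setting of the counting are not given in the sources used here, so overlapping genes, such as Gm12867 and Gm12868 over Slc2a1, may share counts. Rows that name no gene were left out, and reads on no gene were 38.6% to 50.5% of the uniquely mapped reads. Of the 43629 identifiers, 33068 were named from NCBIM37 (Ensembl's mm9), whose exons gave lengths and coordinates counted from 1. A later annotation could change the lengths.

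Counts were tested in edgeR 4.0.16 (R 4.3.3, limma 3.58.1) with a minimum count of 10, TMM scaling (factors 0.926 to 1.06), glmQLFit, glmQLFTest and Benjamini-Hochberg adjustment over 16500 genes. The common dispersion was 0.0763. DESeq2 1.42.0 was an alternative. Isoenzyme shares were compared by exact permutation. The testing was tried on simulated data. Counts of 3, the limit that a count of 0 allows, are 0.118 to 0.162 CPM.

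Genes named are the 10, Chaf1b and Chaf1a, called genes of the other pathway lists, other glycolysis enzymes with a mean over 10 CPM, the largest rise and fall per list among genes with separated groups, the 5 nearest in pattern, cell type markers and isoenzymes. The 10 genes and the lists were chosen with earlier results of these data known. Alternatives were other scalings, filters, tests and thresholds, a replicate block, each library left out, genes on X and Y left out and, for shares, no length scaling. Adding pseudogene counts was chosen after seeing the data.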

Additional observations from a re-analysis of the deposited data

How the results depend on the processing

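The 10 glycolysis genes gave 0 calls and 0 unadjusted p-values under 0.05 under each alternative tried, except that Pgk1 was not tested with the genes on X and Y left out. Their median log2 fold change stayed negative in each, between -0.34 and -0.10 with 1 library left out, the fits in which the lone library is assumed to vary like the other group. The count of genes called over all genes moved from 62 to 28 with DESeq2's size factors, 31 with library size only, 887 without a low-count filter, 3 with at least 10 counts in every library, 574 with edgeR's exact test, 623 with its likelihood ratio test, 506 with DESeq2, 0 at 2-fold with an adjusted p under 0.01, and between 131 and 366 with 1 library left out. The cause was not tested. With the replicate block the count of calls was 14, and 0 of the 10 glycolysis genes were called. Same-numbered libraries did not deviate together (correlation 0.0016), and by Xist and the genes on Y those of replicate 1 do not share an animal. The signs of Slc2a1, Pgk1 and Eno1 turned with at least 1 library left out, while those of the other 7 kept in each fit. Adding the counts of annotated pseudogenes that share coding stretches, chosen after seeing the data, turned no sign. The copies were at most 0.832% of gene and copies together (Eno1). Reads that map to both a gene and a copy are in neither count, so this addition could not restore them. Chaf1b and Flt3 were not called with at least 10 counts in every library (adjusted p = 0.0651). With the block the adjusted p was 0.059 for Chaf1b, 0.0903 for Fbp1, 0.0797 for Fbp2 and 0.0958 for Flt3. With 2 libraries a group, changes in abundant genes could go uncalled, and 2-fold was not an upper limit to this. Elane fell to 0.5001 of its control level (adjusted p = 0.319) and Mmp9 rose 6.68-fold (adjusted p = 0.0849). Neither was called by edgeR's quasi-likelihood test. Reads that map to several places set the limit for Pgk1, Pkm2, Gapdh and Pgam1.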
